A study of Mus musculus with 30 samples.

Results

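The genes described here encode the subunits of the oxidative phosphorylation (OXPHOS) complexes I to V, measured as mRNA in the livers of mice with and without hepatocyte CEBPA. Members were chosen by symbol (mt-Nd, mt-Co, mt-Cytb and mt-Atp genes, Ndufa, Ndufb, Ndufc, Ndufs and Ndufv genes, Sdha to Sdhd, Uqcr, Cox4 to Cox8 and Atp5 genes) and by a summed expected count of at least 100 over all libraries. Of 55450 genes in the deposited table, 102 matched by symbol and 92 had enough counts. Of these 92, 13 are encoded in mitochondrial DNA and 79 in the nucleus.

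CEBPA is a transcription factor of mature hepatocytes, and the study asked what its loss does to livers on a diet rich in fat, cholesterol and fructose (HFCFD). All 30 mice were male Cebpa fl/fl animals backcrossed to C57BL/6N, all received HFCFD, and each gave 1 stranded poly(A) liver library, with 5 Cre-negative controls and 5 Cre-positive knockouts in each of 3 experiments. In HFCFD2W, mice were fed for 2 weeks and the knockouts (Cebpa ΔHep) carried albumin-Cre, which acts in hepatocytes without induction. In the other 2, HFCFD8W+T10D and HFCFD12W+T10W, the knockouts (Cebpa ΔHep,ERT2) carried the tamoxifen-inducible albumin-ERT2-Cre, both genotypes received tamoxifen, and the labels give 8 weeks of HFCFD with 10 days of tamoxifen and 12 weeks of HFCFD plus 10 weeks of tamoxifen. In the latter, feeding went on through the tamoxifen period, so that the label times add up to 22 weeks on HFCFD. The Cre driver differs between HFCFD2W and the other 2 experiments, and the feeding time and the tamoxifen dosing differ between all 3. Where several of these differ together, their effects on a difference between experiments cannot be told apart.

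OXPHOS is the last stage of fuel oxidation. Complexes I and II pass electrons from NADH and succinate to ubiquinone, complex III passes them to cytochrome c, complex IV passes them to oxygen, and complex V, the ATP synthase, uses the proton gradient that I, III and IV build. The core of complexes I, III, IV and V includes proteins made inside mitochondria from mitochondrial DNA, whereas complex II is wholly nuclear-encoded, so that both genomes must supply parts for the same enzyme. Hepatocytes are rich in mitochondria and feed these complexes with electrons from fatty acid and amino acid oxidation.

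Before values are compared, it must be seen which of these transcripts can be told apart. Stretches of mitochondrial DNA have nuclear copies, and reads that fit both are split between them. At 99% identity or more over at least 150 bases, 7 of the 13 mitochondrial genes had such a copy, all pseudogenes in the nucleus. The first 60 bases of mt-Co2 (GRCm38 chrM:7013-7072, plus strand, coding sequence), a core subunit of complex IV, are shown because they are the same in the pseudogene Gm28661, to which mt-Co2 was identical over 681 bases. The following lines also show the start of mt-Nd3, a core subunit of complex I (chrM:9459-9481, plus strand), beside its copy Gm28438 (chr1:24613097-24613119, minus strand), with the single base that differs in capitals, and the stretch where mt-Atp8 and mt-Atp6, both of complex V, overlap (chrM:7927-7969, plus strand), with the start codon of mt-Atp6 and the stop codon of mt-Atp8 in capitals.
mt-Co2: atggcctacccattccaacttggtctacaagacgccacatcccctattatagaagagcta
mt-Nd3: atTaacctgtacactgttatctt
Gm28438: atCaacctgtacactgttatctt
mt-Atp8 and mt-Atp6: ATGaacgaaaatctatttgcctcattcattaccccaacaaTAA

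The difference between mt-Nd3 and Gm28438 is T3C, counted from the first base of mt-Nd3, and the 345 bases aligned were 99.71% identical. Over the 30 libraries, mt-Co2 received 227234 expected counts and Gm28661 2149838. For mt-Atp6, 292666 counts stood beside 2563857 for Gm10925, and for mt-Co3 360196 beside 2820285 for Gm28437. The copy also held more counts than the gene for mt-Nd3 (51275 against 227621) and mt-Nd4l (82225 against 133603). The deposited levels of these 5 genes are therefore uncertain. In contrast, the copy of mt-Co1 held 11.3% of the counts of the gene, the copy of mt-Nd4 held 0.474%, and no copy passed these limits for mt-Nd1, mt-Nd2, mt-Nd5, mt-Nd6, mt-Cytb and mt-Atp8. Of these, mt-Nd2 had expected counts that were not whole in 20 of 30 libraries, a mark of reads split with another gene. Each of the others had 0 such libraries. Among nuclear members, Atp5g2 (5727 counts, with 19171 in 2 similar genes) and Ndufb4 (4650 counts) with Ndufb4c (8161 counts, annotated as a processed pseudogene) are uncertain for the same reason.

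**Figure D1:**
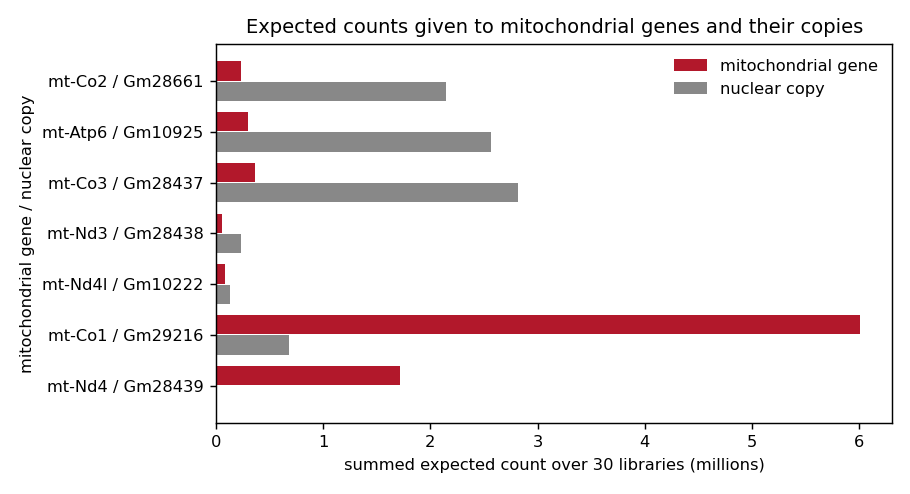
Expected counts summed over 30 libraries (horizontal axis, in units of 1e6 counts) for the 7 mitochondrial genes with a near-identical nuclear copy (red) and for that copy (grey). The copies of mt-Co2, mt-Atp6, mt-Co3, mt-Nd3 and mt-Nd4l hold more counts than the genes, whereas mt-Co1 holds 6012794 counts against 679055 in its copy.

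Levels of different genes were compared per length, as TPM (transcript abundance scaled by length and library) averaged over the 30 libraries. In complex I, mt-Nd2 was highest (8517 TPM), and the nuclear members ranged from 26.5 (Ndufb4) to 299 TPM (Ndufb9), with a median of 128. In complex II, Sdha, the flavoprotein that oxidizes succinate, stood at 236 TPM and Sdhc, a membrane anchor, at 102. In complex III, mt-Cytb (11769 TPM) lay far above the median of the nuclear members (363), of which Uqcrfs1, the Rieske iron-sulfur protein, was lowest at 165. In complex IV, mt-Co1, the catalytic subunit, reached 19335 TPM and the nuclear members had a median of 305, led by Cox4i1 (697). In complex V, the nuclear median was 322, with the catalytic subunit Atp5b highest (860 TPM) and Atp5s lowest (4.50). The 90891 TPM of mt-Atp8 rest on a transcript of 204 bases, short against the sequenced fragments, and are not comparable with the others. mt-Nd6, the single member on the other strand of mitochondrial DNA, was the lowest mitochondrial member in these poly(A) libraries, at 98.3 TPM and 6792 summed counts. How fully poly(A) selection captured each mitochondrial transcript was not tested.

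The 13 mitochondrial genes took 4.65% to 7.45% of the counts in each library, and the 79 nuclear genes 0.929% to 1.11%. In HFCFD2W, the mitochondrial share was 6.45%, 6.72%, 5.94%, 6.26% and 6.97% in the controls and 5.31%, 6.16%, 5.10%, 5.87% and 6.06% in the knockouts, a mean of 6.47% ± 0.400 (SD, n = 5) against 5.70% ± 0.469 (SD, n = 5), with overlap between the genotypes. In HFCFD8W+T10D the means were 6.28% ± 0.825 and 5.43% ± 0.408 (SD, n = 5 each), again with overlap. HFCFD12W+T10W gave 5.58% ± 0.704 and 5.82% ± 0.308 (SD, n = 5 each), which overlapped too. With the 7 copies added, the mean shares of controls and knockouts were 10.0% and 8.53% in HFCFD2W, where the genotypes no longer overlapped (controls from 9.01% and knockouts up to 8.88%), while HFCFD8W+T10D gave 9.86% and 8.81%. HFCFD12W+T10W gave 8.25% and 8.86%, and both of these overlapped.

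The nuclear share was 0.996%, 1.01%, 1.02%, 0.995% and 0.998% in the HFCFD2W controls, all below the knockouts at 1.06%, 1.02%, 1.10%, 1.06% and 1.06%. The lowest knockout (1.024%) lay just above the highest control (1.021%). In HFCFD8W+T10D the controls (0.964% to 1.00%) likewise all lay below the knockouts (1.04% to 1.11%). In HFCFD12W+T10W the genotypes overlapped, with means of 0.994% ± 0.0365 and 0.970% ± 0.0340 (SD, n = 5 each). These shares depend on every other transcript in the library and are given as descriptions, without a test.

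**Figure D2:**
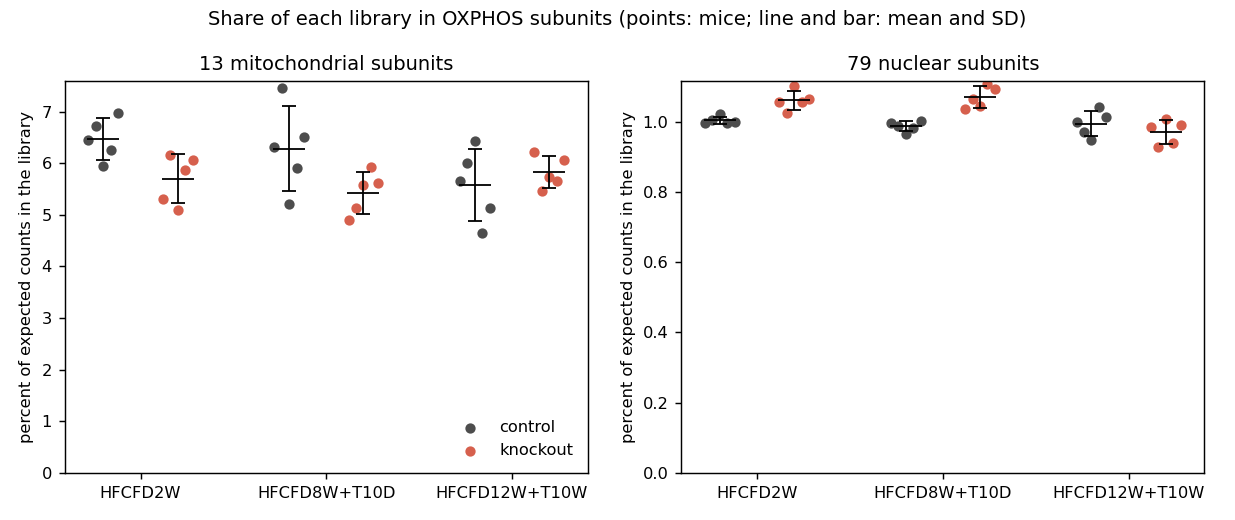
Percent of the expected counts of each library (vertical axes) in the 13 mitochondrial subunits (left) and the 79 nuclear subunits (right), by experiment, for controls (grey) and knockouts (red), with 1 point per mouse and the mean and SD of 5. The nuclear share of every knockout lies above every control in HFCFD2W and HFCFD8W+T10D, and the genotypes overlap in HFCFD12W+T10W.

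Libraries held 7996128 to 10257366 counts. Cebpa, the targeted gene, was lower in every knockout than in every control of its experiment, with a mean at 2.68% of control after 2 weeks of HFCFD, 12.1% in HFCFD8W+T10D and 19.2% in HFCFD12W+T10W. CPM (counts scaled to library size) are here adjusted by TMM, which sets most genes to no change, and genotypes were compared with edgeR's quasi-likelihood test and Benjamini-Hochberg adjustment over all genes tested. Calls required an adjusted p under 0.05. In bulk liver, fewer cells of a type and less RNA per cell cannot be told apart. Markers of other cells moved with genotype in HFCFD12W+T10W: all 5 cholangiocyte markers were higher (summed level 2.57 to 4.11 TPM in controls and 38.1 to 68.4 in knockouts), as were all 7 stellate cell and fibroblast markers (36.2 to 55.1 and 241 to 296 TPM) and 5 of 7 macrophage markers, with 1 lower (153 to 389 and 670 to 816 TPM), whereas 5 of 7 hepatocyte markers were lower (68760 to 83880 and 48670 to 53230 TPM). Of these, the cholangiocyte marker Cldn4 was at 0 in most controls (lowest 0, median 0 and highest 0.16 TPM) and at 1.7 to 6.47 TPM in knockouts, and no other marker of these 4 lists had a mouse at 0. Among the hepatocyte markers, Ttr went the other way in TPM, with 5513 to 5836 in controls and 6999 to 9676 in knockouts. Apoa1 overlapped (2762 to 5371 and 4059 to 6751 TPM). Lymphocyte markers summed to 4.24 to 7.89 TPM in controls and 17.2 to 28.78 in knockouts, whereas endothelial markers overlapped (50.07 to 104.5 and 78.25 to 81.96 TPM). The part of these cell types in the subunit values was not tested.

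In HFCFD2W, 8 of the 90 subunits tested were called, 4 higher and 4 lower, against 8.6% of all 11068 genes higher and 8.09% lower. The higher ones were nuclear. Ndufs1, the largest core subunit of complex I, measured 116, 105, 128, 113 and 115 CPM in controls and 132, 134, 136, 150 and 152 CPM in knockouts, with every knockout above every control. Its log2 fold change was 0.29 ± 0.07 (SE, adjusted p = 0.0168, edgeR).

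Ndufa5, an accessory complex I subunit, stood at 23.2, 25.6, 23.7, 23.6 and 25.2 CPM in controls and 27.1, 34.4, 32.7, 29.3 and 31.1 CPM in knockouts, again without overlap. It rose by 0.35 ± 0.08 (log2, SE, edgeR adjusted p = 0.0084). Ndufa10, another accessory subunit of complex I, rose by 0.23 ± 0.07 (log2, SE, edgeR adjusted p = 0.0438) and Atp5g2, one of 3 genes for the same ring protein of complex V, by 0.41 ± 0.11 (log2, SE, edgeR adjusted p = 0.0214), the latter with the uncertainty of its copies. The call of Ndufa10 was lost in 8 of 10 fits with 1 mouse left out and held in those without control replicate 4 or knockout replicate 2, and that of Atp5g2 was lost without control replicate 1, 2 or 4 or knockout replicate 6. The calls of Ndufs1 and Ndufa5 held in all 10.

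The lower subunits in HFCFD2W were mt-Nd1, mt-Nd3, mt-Atp6 and Ndufb3. mt-Nd1, a core subunit of complex I with no near-identical copy, gave 6362, 4675, 4368, 5368 and 7021 CPM in controls and 3619, 3508, 4120, 4105 and 3852 CPM in knockouts. Every knockout lay below every control, and the log2 fold change was -0.53 ± 0.13 (SE, edgeR adjusted p = 0.0129). mt-Nd3 (-0.84 ± 0.26, log2, SE, edgeR adjusted p = 0.0468) and mt-Atp6 (-0.41 ± 0.13, log2, SE, edgeR adjusted p = 0.0473) overlapped between genotypes. Of the 10 fits with 1 mouse left out, 7 lost the call of mt-Nd3 (all but those without control replicate 3 or knockout replicate 4 or 5) and 8 that of mt-Atp6 (all but those without control replicate 3 or knockout replicate 4). With the counts of the copies added, a choice made after seeing the data, their edgeR adjusted p rose to 0.0656 and 0.0940, and that of mt-Co3 was 0.0090 at a log2 fold change of -0.54.

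The median log2 fold change in HFCFD2W was -0.21 over the 13 mitochondrial members, of which 12 lay below 0, and 0.04 over the 77 nuclear members tested, beside 0.01 over all genes tested. Of all 11068 genes, 5389 lay below 0. By complex, the nuclear medians ran from 0.02 (complexes I and V) to 0.09 (complex III). 0 members of complexes II, III and IV were called by edgeR, with 1 in each at an unadjusted p under 0.05. At a fold change over 2, 0 members were called, against 1.69% of all genes higher and 1.38% lower. Every knockout lay above every control in 4 members and below in 1, against 6.42% and 6.13% of all genes. Of the macrophage markers, 2 of 6 tested were higher, and 0 of 7 hepatocyte markers were called. The count of higher nuclear members was 2 without control replicate 1 or 2 or knockout replicate 6, and 1 mitochondrial member was called lower without control replicate 1, 2, 4 or 5 or knockout replicate 2, 3 or 6.

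In HFCFD8W+T10D, 3 of 90 subunits were called, all lower, against 6.85% of 11990 genes lower and 10.3% higher. mt-Nd5, a core subunit of complex I that lies in its membrane arm, measured 4696, 5654, 3453, 4985 and 3991 CPM in controls and 3017, 2213, 2885, 3450 and 2761 CPM in knockouts, with the highest knockout just below the lowest control. It fell by 0.67 ± 0.18 on the log2 scale (SE, edgeR adjusted p = 0.0233), a call lost without control replicate 1, 2 or 4 or knockout replicate 3. mt-Nd6 gave 26.9, 25.7, 24.8, 34.6 and 29.3 CPM in controls and 17.5, 21.5, 14.2, 18.2 and 19.5 CPM in knockouts, without overlap, and fell by 0.63 ± 0.13 (log2, SE, edgeR adjusted p = 0.0056). With the counts of its copy added, mt-Nd4l was also called (-0.61 ± 0.16, log2, SE, edgeR adjusted p = 0.0199), against an adjusted p of 0.0509 without them.

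All 13 mitochondrial members had a log2 fold change below 0 in HFCFD8W+T10D (median -0.44), and 6 of them had an unadjusted p under 0.05. Of all 11990 genes, with a median of 0.01, 5827 lay below 0 and 1587 were lower at an unadjusted p under 0.05. The 13 members share libraries and are not independent. The nuclear median was -0.05, with 1 called lower and 0 higher, and 1 nuclear member had an unadjusted p under 0.05 in the higher direction. DESeq2 called 6 mitochondrial and 1 nuclear member lower and 0 higher, and its share over all genes is not given here. Every knockout lay below every control in 3 members and above in 0, against 5.28% and 6.36% of all genes, and 0 passed a fold change of 2, against 2.01% lower and 4.09% higher. With library totals in place of TMM factors, a choice made after seeing the data, the median of all genes was 0.19, the nuclear median was 0.12 and 5 nuclear members were higher and 0 lower. Markers moved as well: 5 of 7 hepatocyte markers were lower (summed level 70120 to 91470 TPM in controls and 43290 to 62970 in knockouts). Ttr, a hepatocyte marker that was not called, went the other way (5218 to 5900 and 7053 to 11520 TPM). Higher were 4 of 7 macrophage (254 to 477 and 316 to 1107 TPM), 2 of 7 stellate cell and 2 of 4 cholangiocyte markers tested. The part of these cell types was not tested. On the TMM scale, whose factors here ran from 0.843 to 0.9935 in controls and 0.882 to 1.224 in knockouts, knockout replicate 4 stood apart. It held the highest value of the 5 knockouts for 73 of 77 nuclear and 12 of 13 mitochondrial members. As a percent of library counts, its nuclear share (1.11%) was close to that of knockout replicate 5 (1.09%). Leaving out knockout replicate 4 gave 5 mitochondrial and 2 nuclear members called lower and a nuclear median of -0.15. Control replicate 2 was the highest control for 59 nuclear and 12 mitochondrial members on the TMM scale. Its mitochondrial share of library counts was also the highest (7.45%), but its nuclear share (0.989%) lay among those of the other controls. Without control replicate 2, edgeR called 1 mitochondrial member lower and 1 nuclear member higher. Without control replicate 1 or knockout replicate 3, 1 mitochondrial member was called.

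In HFCFD12W+T10W, most nuclear OXPHOS subunits were lower on the TMM scale. Of the 90 subunits tested, 71 were called lower and 0 higher, against 23.8% of 12463 genes lower and 27.4% higher. For the higher direction, 0 subunits had an unadjusted p under 0.05 and DESeq2 called 0. By encoding, 67 of 77 nuclear and 4 of 13 mitochondrial members were lower, with median log2 fold changes of -0.39 and -0.37 and 0.01 over all genes tested, and 0 members passed a fold change of 2, against 3.47% of genes lower and 14.3% higher. In 58 nuclear and 3 mitochondrial members, every knockout lay below every control, which held for 16.8% of all genes, and 0 members lay wholly above, which held for 20.9%. This result depends on the scaling. With library totals in place of TMM factors, a choice made after seeing the data, the median of all genes was 0.38, 3 nuclear members were lower and 5 higher, 0 mitochondrial members were called, and the medians of nuclear and mitochondrial members were -0.02 and -0.01. The choice of scaling shifts all genes by about the same amount. The nuclear median relative to that of all genes (-0.41 with TMM, -0.40 with library totals) therefore cannot test this dependence. TMM factors ran from 0.849 to 0.916 in controls and from 1.11 to 1.19 in knockouts, and all values for HFCFD12W+T10W that follow are on the TMM scale.

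**Figure D3:**
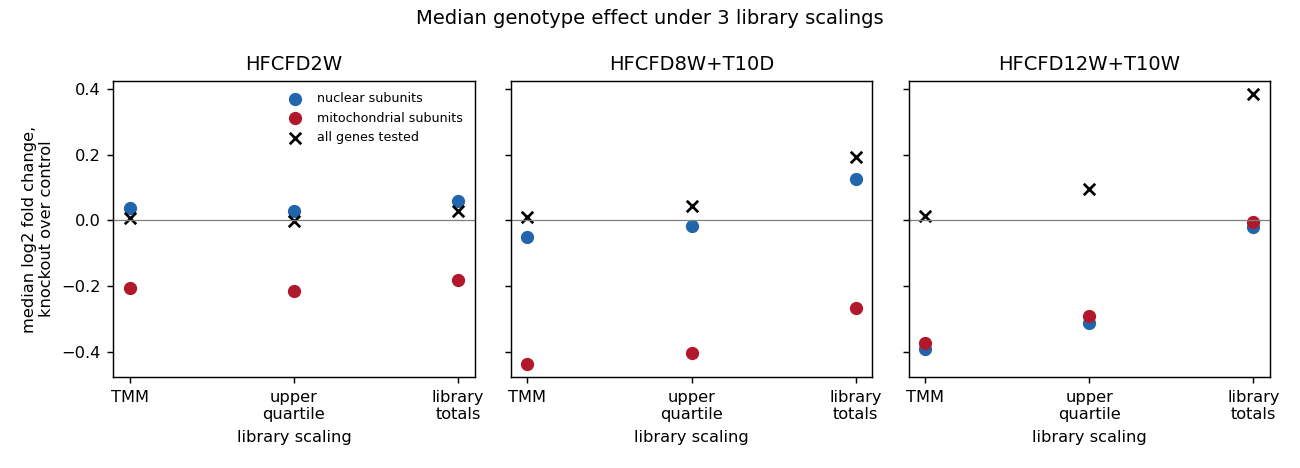
Median log2 fold change, knockout over control (vertical axis), of the nuclear (blue) and mitochondrial (red) subunits and of all genes tested (crosses) under 3 ways to scale libraries, by experiment. In HFCFD12W+T10W the subunits move from -0.39 and -0.37 with TMM to -0.02 and -0.01 with library totals, while the median of all genes moves from 0.01 to 0.38.

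Of complex I, 31 of 36 nuclear members were lower in HFCFD12W+T10W (median -0.34), among them all 7 core subunits (median -0.43) and 24 of 29 accessory subunits (median -0.31). Ndufb9, an accessory subunit (GRCm38 chr15:58933756-58939488), gave the largest log2 fold change of any subunit. It measured 136, 130, 135, 160 and 139 CPM in controls and 91.9, 79.9, 97.3, 89.2 and 87.5 CPM in knockouts. All knockouts lay well below all controls, at -0.65 ± 0.08 (log2, SE, edgeR adjusted p = 1.89e-05).

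Ndufs1 stood at 183, 162, 163, 166 and 152 CPM in controls and 125, 107, 109, 115 and 115 CPM in knockouts, the opposite order to HFCFD2W, at -0.53 ± 0.07 (log2, SE, edgeR adjusted p = 4.56e-05). Ndufa5 was also lower (-0.49 ± 0.09, log2, SE, edgeR adjusted p = 0.000494), as were Ndufb10 (-0.59) and the core subunits Ndufs7 (-0.56), Ndufs8 (-0.45) and Ndufv1 (-0.36), the last of which carries the NADH site. The 5 nuclear members of complex I that were not called were Ndufa7, Ndufa8, Ndufb2, Ndufb4 and Ndufb4c, at -0.09 to -0.27, and naming them was a choice made after their values were seen.

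All 4 subunits of complex II were lower in HFCFD12W+T10W. Sdhb, the iron-sulfur subunit (GRCm38 chr4:140961203-140979193), measured 179, 179, 169, 179 and 162 CPM in controls and 115, 111, 122, 111 and 102 CPM in knockouts. The gap between the genotypes was wider than the range of either, and the log2 fold change was -0.63 ± 0.07 (SE, edgeR adjusted p = 7.28e-06). Sdhc and Sdhd, the membrane anchors, changed by -0.48 and -0.41 and the catalytic Sdha by -0.35, with no overlap in any of them.

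All 8 nuclear subunits of complex III were lower in HFCFD12W+T10W (median -0.43). Uqcrc2, a core-protein subunit, gave 306, 290, 300, 329 and 267 CPM in controls and 225, 197, 207, 208 and 204 CPM in knockouts. The groups did not overlap, and the change was -0.52 ± 0.07 (log2, SE, edgeR adjusted p = 7.14e-05). Uqcrc1 (-0.46) and Uqcrfs1 (-0.46) moved alike, whereas the mitochondrial member mt-Cytb had a log2 fold change of -0.25 ± 0.10 (SE, edgeR adjusted p = 0.0627) with overlap.

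Of the 12 nuclear members of complex IV tested, 11 were lower in HFCFD12W+T10W (median -0.33). Cox7b, an accessory subunit, stood at 118, 117, 117, 142 and 131 CPM in controls and 87.2, 77.0, 94.5, 77.8 and 90.1 CPM in knockouts, all below the controls, at -0.55 ± 0.08 (log2, SE, edgeR adjusted p = 0.000122). Cox4i1, the ubiquitous regulatory subunit, changed by -0.50 ± 0.08 (log2, SE, edgeR adjusted p = 0.000212) and Cox5a by -0.42 ± 0.09 (log2, SE, edgeR adjusted p = 0.0025). The exception was Cox7a2l, which acts in joining complexes III and IV into supercomplexes, with 107 ± 15.6 CPM in controls and 103 ± 8.44 CPM in knockouts (SD, n = 5 each) and a log2 fold change of -0.07 (edgeR adjusted p = 0.600). mt-Co1 had -0.22 ± 0.11 (log2, SE, edgeR adjusted p = 0.108).

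Of the 17 nuclear members of complex V, 13 were lower in HFCFD12W+T10W (median -0.41). Atp5a1, a subunit of the catalytic head, measured 1219, 1107, 1133, 1187 and 1039 CPM in controls and 844, 750, 821, 839 and 723 CPM in knockouts, without overlap, and its log2 fold change was -0.52 ± 0.08 (SE, edgeR adjusted p = 0.000159). Atp5b, its catalytic partner, changed by -0.41 ± 0.07 (log2, SE, edgeR adjusted p = 0.000409). Atp5e (-0.21), Atp5g2 (-0.09) and Atp5mpl (-0.19) did not pass, nor did Atp5s, a coupling factor with the lowest level of the complex and the single nuclear member above 0 (0.22 ± 0.19, log2, SE, edgeR adjusted p = 0.375), with Atp5e and Atp5mpl named after their values were seen.

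The 4 mitochondrial members called in HFCFD12W+T10W all belong to complex I. mt-Nd2 gave 6992, 6944, 8497, 6718 and 6142 CPM in controls and 4992, 4453, 5183, 4430 and 4810 CPM in knockouts, without overlap, at -0.56 ± 0.10 (log2, SE, edgeR adjusted p = 0.000519). mt-Nd6 gave 30.4, 36.3, 45.0, 37.2 and 28.1 CPM in controls and 22.4, 22.8, 23.2, 23.4 and 25.6 CPM in knockouts, also apart, at -0.59 ± 0.11 (log2, SE, edgeR adjusted p = 0.000882). mt-Nd4 (-0.39) and mt-Nd4l (-0.47) were called with overlap. The call of mt-Nd4l was lost in 8 of 10 fits with 1 mouse left out and held in those without control replicate 4 or 5. With the counts of the copies added, it held (-0.41, edgeR adjusted p = 0.0152) and mt-Co2 was called as well (-0.25 ± 0.10, log2, SE, edgeR adjusted p = 0.0430). Of the mitochondrial members, 11 had an unadjusted p under 0.05 in the lower direction. DESeq2 called 12 of the 13 lower. For either count, a share over all genes is not given here. Without control replicate 4 or control replicate 5, edgeR called 9 or 7 lower, and with library totals it called 0. In the main edgeR fit, 23.8% of all genes were called lower.

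**Figure D4:**
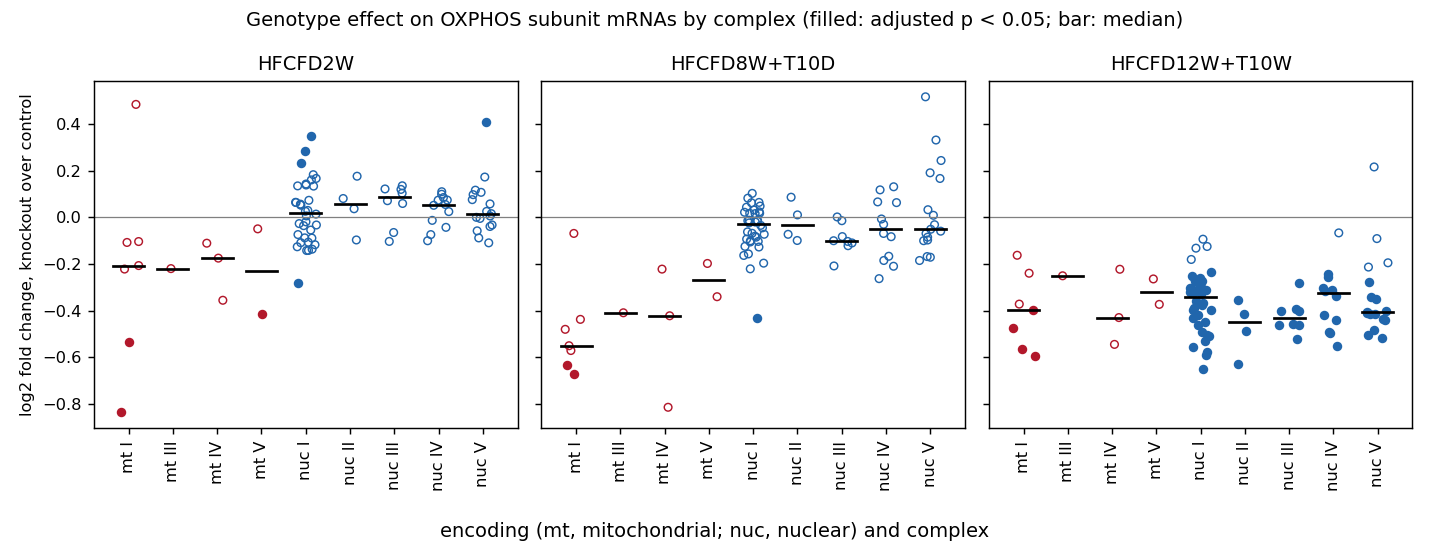
Log2 fold change, knockout over control (vertical axes, TMM scale), of each subunit by complex, for mitochondrial (mt, red) and nuclear (nuc, blue) members in the 3 experiments, filled where the adjusted p was under 0.05, with the median as a bar. Most nuclear points lie near 0 in HFCFD2W and HFCFD8W+T10D and near -0.39 in HFCFD12W+T10W, where scaling by library totals gives a nuclear median of -0.02.

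Whether a genotype effect differed between experiments was tested by interaction terms in a joint edgeR model of the 30 libraries, with 91 members among 12964 genes. On the TMM scale, the genotype effect was lower in HFCFD12W+T10W than in HFCFD2W for 58 nuclear members and mt-Nd6, and higher for 0 (also 0 at an unadjusted p under 0.05), against 17.3% and 13.4% of all genes. mt-Nd6 had the widest difference (-1.12 ± 0.25, log2, SE, edgeR adjusted p = 0.00139). Among nuclear members, Ndufa5 (-0.88 ± 0.14, log2 difference, SE, edgeR adjusted p = 2.42e-05), Ndufs1 (-0.86 ± 0.11, edgeR adjusted p = 2.56e-06), Ndufs7 (-0.78) and Sdhb (-0.71) led. Both Ndufa5 and Ndufs1 were called in opposite directions in the pair of experiments. With library totals, this contrast had 8 nuclear members lower and 2 higher, and 0 mitochondrial members lower and 2 higher.

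Between HFCFD12W+T10W and HFCFD8W+T10D, which share the inducible Cre, the effect was lower in the former for 25 nuclear members and 0 mitochondrial members (also 0 at an unadjusted p under 0.05), and higher for 0, against 5.49% of all genes lower and 4.97% higher. The median difference was -0.36 over nuclear and 0.05 over mitochondrial members. With library totals, 4 nuclear members differed. The widest differences were Atp5g1 (-0.62 ± 0.15, log2, SE, edgeR adjusted p = 0.00747), Ndufs7 (-0.60), Sdhb (-0.59), Sdhd (-0.53) and Ndufa9 (-0.53). Leaving out 1 mouse moved this count over 1.5 times in 9 cases, from 10 without HFCFD8W+T10D control replicate 5 to 44 without HFCFD8W+T10D knockout replicate 2, with 40 without control replicate 2, 12, 15, 16 and 15 without control replicates 3 and 4 and knockout replicates 3 and 4 of that experiment, and 12 and 14 without HFCFD12W+T10W control replicate 4 and knockout replicate 2.

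Between HFCFD8W+T10D and HFCFD2W, mt-Nd6 (-1.13 ± 0.26, log2 difference, SE, edgeR adjusted p = 0.00408) and Ndufs1 (-0.45 ± 0.11, edgeR adjusted p = 0.00687) differed, against 6.79% of genes lower and 4.45% higher. mt-Nd6 measured 21.2, 20.3, 27.1, 14.8 and 11.1 CPM in the controls of HFCFD2W and 28.3, 34.8, 16.7, 21.6 and 31.1 CPM in the knockouts, so that the knockout mean was above the control mean there and below it in the other 2 experiments, although the groups overlapped in HFCFD2W. Without HFCFD8W+T10D knockout replicate 4, 5 nuclear and 2 mitochondrial members differed, and without HFCFD2W knockout replicate 2 or HFCFD8W+T10D control replicate 4, 2 nuclear members did. With library totals, 0 nuclear members were lower and 2 higher in this contrast.

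1 of the 90 members tested in every experiment was called in the same direction in all 3: Ndufb3, an accessory subunit of complex I (GRCm38 chr1:58586384-58595964), against 1.95% of 10950 genes lower in each and 1.69% higher. In HFCFD2W it measured 35.5, 35.4, 31.9, 40.4 and 29.4 CPM in controls and 27.6, 28.5, 31.6, 26.4 and 27.9 CPM in knockouts, which overlapped, at -0.28 ± 0.09 (log2, SE, edgeR adjusted p = 0.0444). In HFCFD8W+T10D controls gave 37.4, 47.2, 38.4, 39.6 and 46.9 CPM and knockouts 29, 29.5, 30.5, 36.1 and 30.5 CPM, at -0.43 ± 0.10 (log2, SE, edgeR adjusted p = 0.0130). In HFCFD12W+T10W controls gave 40.0, 44.0, 40.2, 50.3 and 38 CPM and knockouts 26.8, 27.1, 29.8, 26.3 and 32.3 CPM, at -0.58 ± 0.09 (log2, SE, edgeR adjusted p = 0.000204). Every knockout lay below every control in the later 2 experiments. The call in HFCFD2W was lost without 1 mouse in 7 of 10 cases, namely without control replicate 1, 2 or 4 or knockout replicate 2, 3, 5 or 6.

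The 250 bases before the RefSeq start of Ndufb3 (GRCm38.p6 chr1:58586147-58586396, plus strand) are shown because it is this single member, with the CCAAT letters, read here on the opposite strand, in capitals.
Ndufb3 promoter: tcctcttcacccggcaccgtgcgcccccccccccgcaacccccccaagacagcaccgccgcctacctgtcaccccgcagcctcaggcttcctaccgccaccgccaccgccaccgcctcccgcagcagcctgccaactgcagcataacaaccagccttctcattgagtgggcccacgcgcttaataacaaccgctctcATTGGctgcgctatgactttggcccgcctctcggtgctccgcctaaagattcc

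RefSeq promoters of 300 bases (250 before and 50 after the start) were matched for 63 of 79 nuclear members and searched on both strands. CGCATGCG, the NRF1 core, occurred in 12.7% of the members' promoters and 1.87% of all 32851, AAGATGGC, the YY1 letters, in 12.7% and 2.75%, and TCAAGGTCA, the ERR letters, in 3.17% and 0.423%. CCAAT occurred in 42.9% and 37.4%, and TATAAA in 7.94% and 13.6%. For CEBPA itself, TTGCGCAA occurred in 0 of 63 and in 0.183% of all, and the wider TTGCNNAA, which includes it, in 12.7% and 10.8%. Letters that match are a description, not a site.

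**Figure D5:**
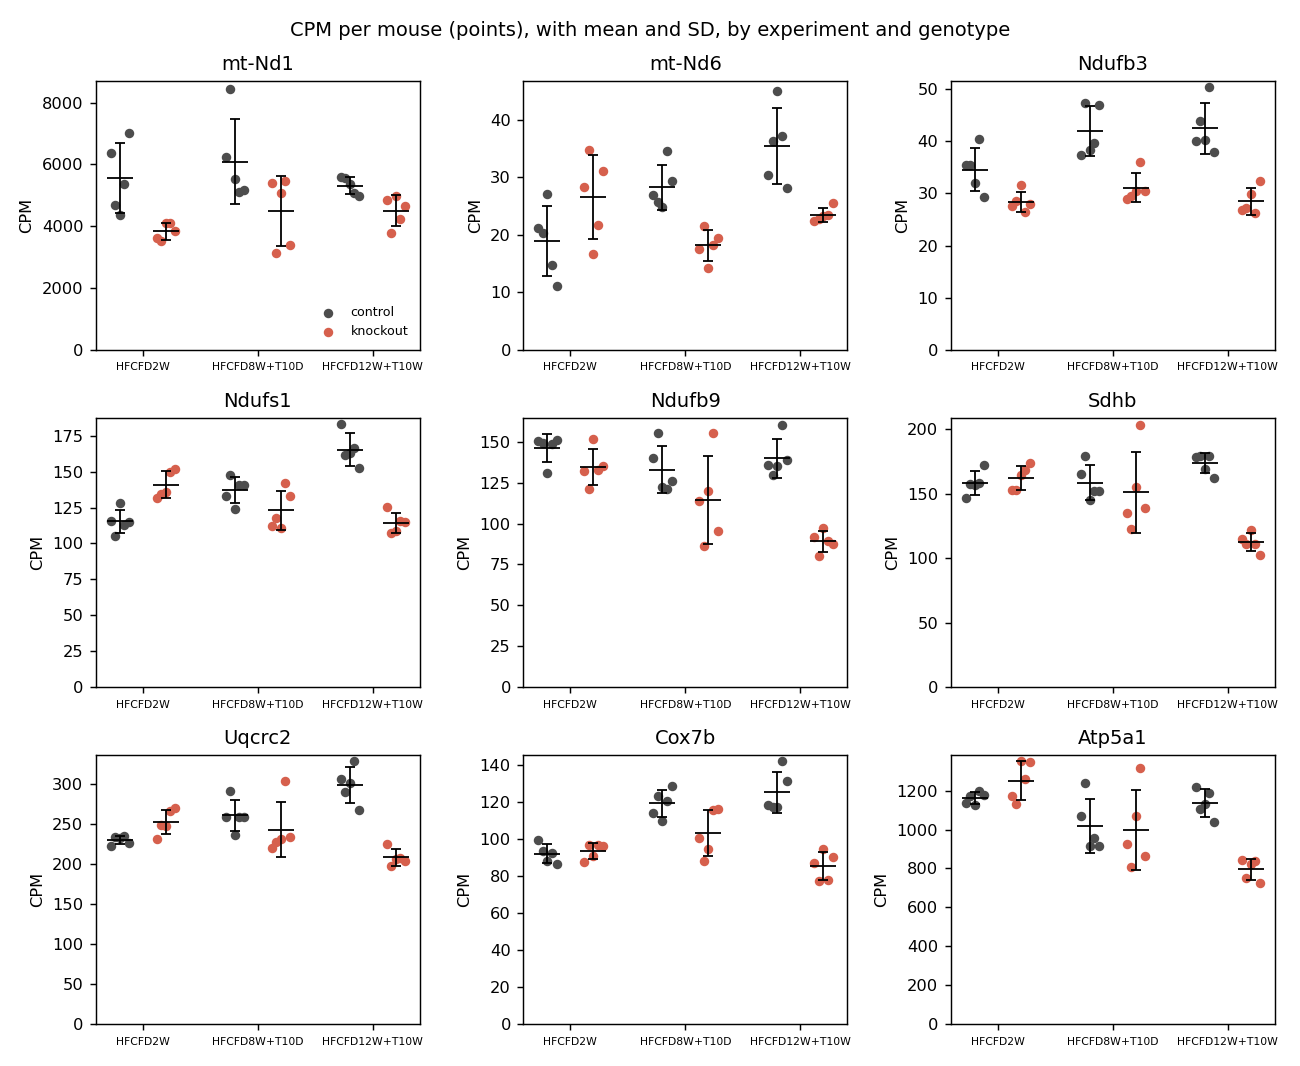
CPM per mouse on the TMM scale (vertical axes, from 0) for 9 subunits in controls (grey) and knockouts (red) of the 3 experiments, with mean and SD of 5 mice. Ndufb3 knockouts lie below or among the controls throughout, Ndufs1 knockouts lie above the controls in HFCFD2W and below them in HFCFD12W+T10W, and HFCFD8W+T10D knockout replicate 4 is the highest knockout for Uqcrc2 at 303 CPM.

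Members also differed in their spread between mice. On the TMM scale, the median coefficient of variation over mitochondrial members ranged from 12.7% to 22% across the 6 groups. Over nuclear members it ranged from 5.87% to 14.7%, the highest being the HFCFD8W+T10D knockouts, whose TMM factors ran from 0.882 to 1.224. Across the 77 nuclear members, log2 fold changes in HFCFD8W+T10D and HFCFD12W+T10W, which share no mice, had a Pearson r of 0.683. It was 0.301 between HFCFD2W and HFCFD8W+T10D and 0.038 between HFCFD2W and HFCFD12W+T10W. Across the 13 mitochondrial members the same pairs gave 0.629, -0.485 and -0.617. These values are a description over genes that are not independent and share libraries.

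Several subunits exist as isoforms that are best known from heart and skeletal muscle, lung or testis, and these were scarce in the livers. Cox4i2, Cox6a2, Cox6b2 and Cox8b held 28, 21, 41 and 6 counts in all 30 libraries and Cox8c held 0, each too few for membership. Just inside the limit, Ndufa4l2 held 149 counts and Cox7a1 217, and both stayed below the minimum for the tests within experiments. Cox7a1 held 38 counts over the 5 controls and 57 over the 5 knockouts of HFCFD12W+T10W, and Ndufa4l2 16 and 33. Among the common forms, Cox6a1 (-0.24), Cox6b1 (-0.25), Cox7a2 (-0.31), Cox8a (-0.30) and Ndufa4 (-0.31) were lower in HFCFD12W+T10W on the TMM scale and above 0 with library totals. The call of Cox6a1 was lost without control replicate 5 or knockout replicate 2 or 4, and that of Cox8a without control replicate 4 or 5 or knockout replicate 2 or 4. Of the ring-protein genes, Atp5g1 (-0.35) and Atp5g3 (-0.40) were lower in that experiment and Atp5g2 (-0.09) was not called. Ucp1, of brown fat, was at 0 in all 6 groups.

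Genes that build or feed these complexes, from lists that leave out the members, were also often lower in HFCFD12W+T10W. On the TMM scale, against 23.8% of all genes, lower calls were 16 of 47 assembly factors tested, 19 of 32 genes of mitochondrial DNA expression, 13 of 24 electron carriers and feeding enzymes, 11 of 17 genes of the tricarboxylic acid (TCA) cycle, 34 of 79 mitochondrial ribosomal proteins and 14 of 19 genes of other mitochondrial compartments. The medians were -0.12, -0.33, -0.26, -0.35, -0.22 and -0.28, with 3, 0, 2, 1, 0 and 1 genes higher, against 27.4% of all genes. No values of these lists are given with library totals, the scaling under which the nuclear subunit median was -0.02. Whether the lists depend on the scaling as the subunits do was not tested. Tfam, which packages and transcribes mitochondrial DNA, was lower in HFCFD12W+T10W (-0.55 ± 0.08, log2, SE, edgeR adjusted p = 9.46e-05) and in HFCFD8W+T10D (-0.38 ± 0.10, log2, SE, edgeR adjusted p = 0.0179). Cs, citrate synthase, went against its list (0.28 ± 0.10, log2, SE, edgeR adjusted p = 0.0259). Sco2, a copper chaperone for complex IV, fell by 1.02 on the log2 scale in both HFCFD2W (edgeR adjusted p = 0.000221) and HFCFD12W+T10W (edgeR adjusted p = 0.000180).

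In HFCFD2W, where 8.6% of all genes were higher and 8.09% lower, 7 of 17 TCA cycle genes were higher and 1 lower (median 0.19), among them Ogdh, of the oxoglutarate dehydrogenase complex (0.36 ± 0.08, log2, SE, edgeR adjusted p = 0.0117), and the other lists had medians from -0.07 to 0.13. In HFCFD8W+T10D, where 6.85% of all genes were lower and 10.3% higher, 4 of 32 genes of mitochondrial DNA expression were lower (median -0.22), 0 of 17 TCA cycle genes and 0 of 79 mitochondrial ribosomal proteins were called in edgeR, with 1 of the former and 7 of the latter above 0 at an unadjusted p under 0.05 and 1 of the latter below, and medians lay between -0.22 and 0.04.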

How the data were processed

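Liver mRNA of 30 mice was sequenced as stranded poly(A) libraries. The authors made gene-level expected counts and TPM with RSEM, per library and as 1 table (difference 0). The submitters' processing notes name Trimmomatic 0.36, STAR 2.5.1, Picard 1.84, RSEM 1.2.22, DESeq2 and mm10. All 55450 gene identifiers are those of GENCODE M21. A deposited signal table of TMM-normalized counts served 1 alternative.

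Expected counts were rounded. With R 4.3.3 and edgeR 4.0.16, low genes were removed by filterByExpr, libraries were scaled by TMM, and knockouts were set against their own controls with the quasi-likelihood test, with interactions from 1 joint fit. p-values set genotype differences against the spread between mice of the same group. The SE of an edgeR log2 fold change was derived from the test, as its absolute value divided by the square root of the F statistic. The script was tested on simulated data. Alternatives were DESeq2 1.42.0, limma 3.58.1, other scalings, filters and thresholds, a replicate block, and each mouse left out. Shared genes were found with blastn at 99% identity over 150 bases.

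The members and lists were chosen with earlier results of these data known. Named were mitochondrial members, up to 5 members called each way per experiment or interaction, those called in all 3, isoform pairs, core examples, and the highest and lowest of each complex.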

Additional observations from a re-analysis of the deposited data

Results flagged for a closer look

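The genotype effect on 59 subunits differed between HFCFD12W+T10W and HFCFD2W, on 25 between HFCFD12W+T10W and HFCFD8W+T10D, and on 2 between HFCFD8W+T10D and HFCFD2W, each by an interaction in the edgeR fit of all libraries. These counts are on the TMM scale.

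Of 108 sets of 5 mice examined (the 2 shares and 16 subunits in 6 groups), 5 held a mouse far from the other 4 by Dixon's criterion, and chance alone would give about 1 in 20. These were control replicate 3 of HFCFD2W for Ndufb9 (130.9 CPM) and mt-Nd2 (5470 CPM), control replicate 2 of HFCFD8W+T10D for mt-Nd2 (10152 CPM), and knockout replicate 4 of HFCFD8W+T10D for Ndufb3 (36.1 CPM) and Uqcrc2 (303 CPM).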

How the results depend on the processing

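Of the counts, medians and shares recomputed under alternatives, 816 values stayed close to those reported and 96 moved. For single named subunits 2454 kept direction and call, 322 lost the call and 11 changed sign, all of the latter with library totals. Where no cause is given below, it was not tested.

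With library totals, the log2 fold changes in HFCFD12W+T10W that changed sign were Atp5g1 0.021, Cox6a1 0.13, Cox6b1 0.12, Cox7a2 0.060, Cox8a 0.073, Ndufa10 0.053, Ndufa4 0.065, Ndufv1 0.011 and Sdha 0.016, and the differences between HFCFD12W+T10W and HFCFD2W were 0.0058 for Atp5g3 and 0.043 for Cox6b1. Under the same scaling, nuclear members called were 0 lower in HFCFD2W, 5 higher and 0 lower in HFCFD8W+T10D (median 0.12), and 5 higher and 3 lower in HFCFD12W+T10W (median -0.019), where 0 mitochondrial members were lower (median -0.0058). Interaction counts became 2 nuclear higher and 0 lower between HFCFD8W+T10D and HFCFD2W, 4 nuclear lower between HFCFD12W+T10W and HFCFD8W+T10D, and 2 nuclear higher, 8 nuclear lower, 2 mitochondrial higher and 0 mitochondrial lower between HFCFD12W+T10W and HFCFD2W. Upper-quartile scaling left 10 and 32 nuclear members lower in the last 2 contrasts.

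DESeq2 called 6 mitochondrial members lower in HFCFD8W+T10D and 12 in HFCFD12W+T10W. limma on the deposited TMM-normalized values called 0 nuclear and 1 mitochondrial member lower in HFCFD2W, and 4 and 9 mitochondrial members lower in the later experiments. The joint fit called 1 mitochondrial member lower in HFCFD2W, and 4 nuclear and 8 mitochondrial members lower in HFCFD8W+T10D. Without the low-count filter, 0 nuclear members were lower in HFCFD2W and 12 differed between HFCFD12W+T10W and HFCFD8W+T10D. With the nuclear copies added, 2 mitochondrial members differed between each later experiment and HFCFD2W.

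At an adjusted p under 0.01, HFCFD2W kept 1 nuclear higher, 0 nuclear lower and 0 mitochondrial lower, HFCFD8W+T10D 0 nuclear and 1 mitochondrial lower, HFCFD12W+T10W 2 mitochondrial lower, and the contrasts of HFCFD12W+T10W with HFCFD8W+T10D and HFCFD2W 3 and 38 nuclear lower. With a fold change over 2 required, 0 members were called in any experiment.

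Same-numbered mice correlated at -0.23 to 0.113, which shows no pairing by number but, with 5 mice per group, cannot exclude it. A replicate block gave 0 nuclear higher, 0 nuclear lower and 0 mitochondrial lower in HFCFD2W, 7 mitochondrial lower in HFCFD12W+T10W, and 10 nuclear lower between HFCFD12W+T10W and HFCFD8W+T10D.

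As a percent of TPM, the difference between knockouts and controls was 0.126 for nuclear and -2.67 for mitochondrial members in HFCFD2W, 0.188 for nuclear members in HFCFD8W+T10D and 0.844 for mitochondrial members in HFCFD12W+T10W. Without the 10 most abundant genes in the total, it was 0.0969 for nuclear members in HFCFD2W, -0.147 for mitochondrial members in HFCFD8W+T10D and -0.701 in HFCFD12W+T10W.

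Leaving out 1 mouse gave 2 to 4 nuclear higher, 0 to 1 nuclear lower and 1 to 3 mitochondrial lower in HFCFD2W, 0 to 1 nuclear higher, 1 to 2 nuclear lower and 1 to 5 mitochondrial lower in HFCFD8W+T10D, and 3 to 9 mitochondrial lower in HFCFD12W+T10W. The interaction counts ranged from 1 to 5 nuclear and 1 to 2 mitochondrial between HFCFD8W+T10D and HFCFD2W, and from 10 to 44 nuclear between HFCFD12W+T10W and HFCFD8W+T10D.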
